A study of Mus musculus with 9 samples.

Results

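The 10 genes described here encode the cyclins, cyclin-dependent kinases (CDKs), pocket protein and transcription factor that take a cell through G1 and into S phase. They are the D cyclins Ccnd1, Ccnd2 and Ccnd3, the E cyclins Ccne1 and Ccne2, the kinases Cdk4, Cdk6 and Cdk2, the retinoblastoma gene Rb1 and E2f1. They were taken by name from the deposited table of values, which holds 12339 genes, and all 10 were present and passed the filter on low reads. Their RNA was measured in KP-GFP cells, mouse lung tumour cells of C57BL/6 strain that carry green fluorescent protein (GFP), in 9 libraries. The 3 conditions compared have 3 libraries each. In the first the tumour cells grew alone, in the second with TRM (tissue-resident macrophages of the lung, here alveolar macrophages), and in the third with bone-marrow monocytes (BM-Mo). Every spheroid was seeded with 2500 tumour cells, and co-cultures received 5000 TRM or monocytes as well. After 7 days in ultra-low attachment plates, 32 spheroids per condition were pooled, dissociated for 20 min at 37 °C and sorted for GFP, so all groups hold cells of the same tumour line that went through the same sort. Whether the replicates came from separate cultures is not stated in the labels, and p-values therefore reflect the spread between these libraries alone, which may be technical.

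As background, growth factor signals raise the D cyclins, which bind CDK4 or CDK6 and begin to phosphorylate RB1. RB1 holds E2F1 and its relatives inactive on their target promoters, and its phosphorylation releases them. The freed E2F factors transcribe the E cyclins and much of the DNA replication machinery, and cyclin E with CDK2 phosphorylates RB1 further. INK4 proteins inhibit CDK4 and CDK6, and CIP/KIP proteins act mainly on CDK2. Levels below are deposited values in CPM (reads scaled to a common library size), in replicate order 1, 2, 3. A gene was called where limma, fitted to log2 values of all 9 libraries, gave a Benjamini-Hochberg adjusted p under 0.05 over 12326 genes.

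E2f1, Ccne1, Ccne2, Cdk2 and Cdk4 rose with monocytes, and E2f1 and Ccne1 rose with TRM. With TRM 2 of the 10 genes were called higher and 0 lower, where limma called 10.2% of all tested genes higher and 8.15% lower. With monocytes 5 of the 10 were called higher and 0 lower, against 14.7% and 12.7% of all genes. Between TRM and monocyte co-cultures 0 of the 10 were called by limma, by edgeR or by DESeq2, where limma called 0.398% of all genes. Libraries of the co-culture and the alone group did not overlap for 6 of the 10 genes in the higher direction and 1 in the lower with TRM, as for 20.8% and 18.5% of all genes. With monocytes they did not overlap for 4 genes, all higher, as for 21.3% of all genes. At an unadjusted p under 0.05 the comparison between co-cultures also held 0 of the 10 by limma and by DESeq2, and 1 by edgeR. The median log2 fold change of the 10 genes was 0.43 with TRM and 0.47 with monocytes, beside medians of 0.00 and -0.02 over all genes tested. Both comparisons use the same 3 libraries of tumour cells alone. Leaving out TRM replicate 2 left 1 of the 10 called with TRM, and leaving out monocyte replicate 1 gave 4. With monocytes the count was 3 without alone replicate 3 and 3 without monocyte replicate 3. These are sorted pools, so a larger share of cells expressing a gene and more RNA per cell cannot be told apart.

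**Figure D1:**
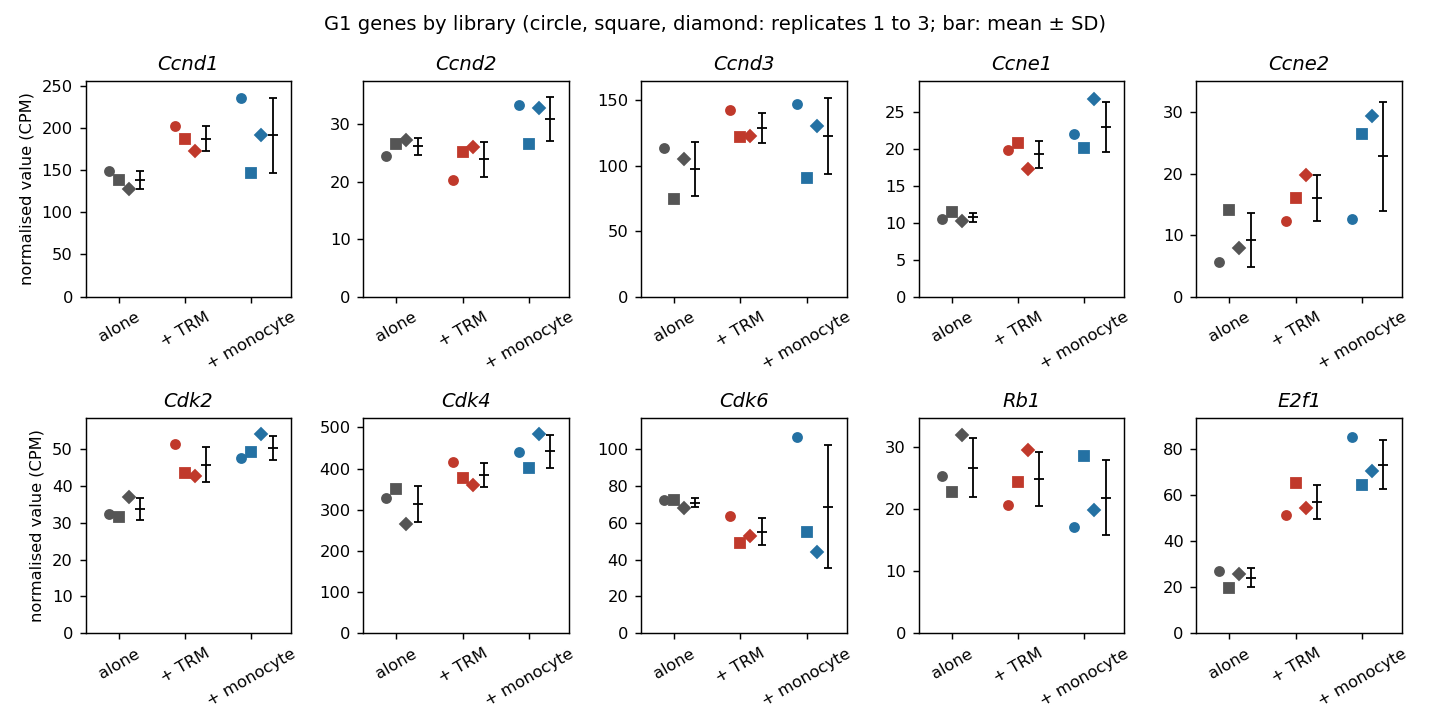
Each panel plots 1 gene's value in CPM (vertical axis, from 0) in every library of the 3 groups (horizontal axis); circle, square and diamond are replicates 1 to 3, and the bar is the mean ± SD (n = 3). In the E2f1 panel all 6 co-culture libraries lie above 51 CPM and the 3 libraries of tumour cells alone below 28 CPM, whereas the Rb1 and Cdk6 panels show overlapping monocyte and alone groups.

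The D cyclins, which carry the growth factor signal into the cycle, gave 0 calls in all 3 comparisons, at adjusted p between 0.0583 and 0.995. At an unadjusted p under 0.05 Ccnd1 would pass in both comparisons with tumour cells alone (0.018 and 0.0168), and the other D cyclins in none. Ccnd1 (cyclin D1, chromosome 7, 144929931 to 144939925, minus strand, GRCm38) was at 149, 138 and 128 CPM alone, 202, 187 and 173 with TRM, and 236, 147 and 192 with monocytes. All 3 TRM libraries lay above the alone group, while monocyte replicate 2 fell within it. The difference was 1.36-fold with TRM (log2 0.44, SE 0.16, limma adjusted p = 0.0804) and 1.36-fold with monocytes (log2 0.45, SE 0.16, limma adjusted p = 0.0583). Ccnd1 passed the threshold with TRM when monocyte replicate 1 (0.0356) or 2 (0.0455) was left out, or when only the groups compared were fitted (0.0251). With monocytes it passed without monocyte replicate 2 (0.0132) and in DESeq2 (0.041). In the authors' deposited table Ccnd1 was called with TRM (log2 0.42, false discovery rate 0.0209) and not with monocytes (0.0735).

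Ccnd3 (cyclin D3, chromosome 17, 47505051 to 47599691, plus strand) was at 113, 74.3 and 105 CPM alone, 142, 122 and 123 with TRM, and 147, 90.7 and 130.2 with monocytes. The TRM libraries again lay above the alone group and the monocyte group straddled it (log2 0.42 and 0.32, SE 0.20 each, limma adjusted p = 0.161 and 0.242). Ccnd2 (cyclin D2, chromosome 6, 127125162 to 127152193, minus strand) was the D cyclin whose co-culture means stood on opposite sides of the alone mean. Its values were 24.6, 26.7 and 27.2 CPM alone, 20.4, 25.3 and 26.0 with TRM, and 33.3, 26.5 and 32.9 with monocytes. The TRM and monocyte groups did not overlap for Ccnd2, which held for 8.62% of all genes in that direction, and the difference between them (log2 -0.37, SE 0.18, 95% interval -0.75 to 0.01) did not pass (limma adjusted p = 0.438).

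Cdk4 (chromosome 10, 127063534 to 127067920, plus strand), the catalytic partner of the D cyclins, rose with monocytes. It was at 328, 350.2 and 266 CPM alone, 417, 378 and 359.8 with TRM, and 441, 402 and 483 with monocytes. Every co-culture library lay above every alone library. The rise with monocytes was 1.41-fold (log2 0.50, SE 0.14, limma adjusted p = 0.0177), and it no longer passed without alone replicate 3 (0.103) or monocyte replicate 3 (0.0521). With TRM the difference was 1.23-fold (log2 0.30, SE 0.14, limma adjusted p = 0.164). The 249 bases before the Cdk4 start that lie outside annotated exons (RefSeq, GRCm38.p6, chr10:127063285-127063533, plus strand) are printed because they hold 4 copies of the E box CACGTG, the word bound by MYC and its relatives, shown in capitals together with the GC box (CCGCCC, the complement of GGGCGG).
Cdk4: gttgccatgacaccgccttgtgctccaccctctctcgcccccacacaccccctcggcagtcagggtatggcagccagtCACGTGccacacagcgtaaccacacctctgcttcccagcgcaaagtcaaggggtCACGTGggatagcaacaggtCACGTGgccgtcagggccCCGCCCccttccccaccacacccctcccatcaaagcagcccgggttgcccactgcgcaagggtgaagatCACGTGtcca
Of 32851 RefSeq windows of 250 bases, 6.02% hold CACGTG and 7 windows hold it 4 or more times. The E box was searched for after this window had been read, and a match of letters does not show binding. Myc itself, named here after its values were seen, was at 505, 925 and 722 CPM alone, 374, 590.2 and 574 with TRM and 488, 566 and 481 with monocytes (limma adjusted p = 0.155 and 0.147). It passed as lower without alone replicate 1, at 0.0449 with TRM and 0.0383 with monocytes.

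Cdk6 (chromosome 5, 3341485 to 3531008, plus strand), the other kinase partner of the D cyclins, did not pass in any comparison. It was at 72.4, 72.7 and 68.1 CPM alone, 63.7, 49.1 and 53.1 with TRM, and 107, 55.1 and 44.4 with monocytes. The TRM group lay below the alone group, while the monocyte group ran from below it to above it. Neither difference from the alone group passed (log2 -0.37 and -0.15, SE 0.25 each, limma adjusted p = 0.346 and 0.696). Monocyte replicate 1 decided the monocyte value: without it the difference was -0.52 and passed as lower (limma adjusted p = 0.0387), and without monocyte replicate 3 the sign turned (log2 0.11). Taken per kilobase of all exons, Cdk4 exceeded Cdk6 by 16.8 to 20.8 times in the alone libraries, 28.2 to 33.1 times with TRM and 17.7 to 46.9 times with monocytes. This ratio of levels did not overlap between the TRM and alone groups. That follows from the TRM libraries lying above the alone group for Cdk4 and below it for Cdk6. The ratio is given as a description with no test.

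Ccne1 (cyclin E1, chromosome 7, 38097984 to 38107534, minus strand), which activates CDK2 at the entry to S phase, rose in both co-cultures. It was at 10.5, 11.4 and 10.2 CPM alone, 19.9, 20.7 and 17.2 with TRM, and 22.0, 20.1 and 26.7 with monocytes. No co-culture library came near the alone group, whose highest value was 11.4. The rise was 1.79-fold with TRM (log2 0.84, SE 0.19, limma adjusted p = 0.00881) and 2.13-fold with monocytes (log2 1.09, SE 0.19, limma adjusted p = 0.00127). The TRM call was lost without TRM replicate 2 (0.0527). The monocyte call held in all 17 alternatives, at adjusted p between 4.96e-06 and 0.00809. The 2 co-cultures differed by log2 -0.25 (95% interval -0.67 to 0.17, limma adjusted p = 0.698). The part of the Ccne1 promoter window outside annotated exons, 206 bases (RefSeq, GRCm38.p6, chr7:38107535-38107740, minus strand), is shown because Ccne1 is a member called in both comparisons, with GC boxes in capitals.
Ccne1: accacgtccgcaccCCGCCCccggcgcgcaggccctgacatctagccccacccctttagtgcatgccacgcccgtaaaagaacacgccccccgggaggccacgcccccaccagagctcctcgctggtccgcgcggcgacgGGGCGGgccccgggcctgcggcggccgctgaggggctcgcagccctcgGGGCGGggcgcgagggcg
It holds 3 GC boxes (GGGCGG on either strand, found in 32.7% of all windows of 250 bases). None of the E2F words TTTCCCGC, TTTGGCGC, TTTCGCGC and TTTGCCGC was found on either strand of its window of 250 bases. These words occur in 1.86% of all windows, and their absence from these letters says nothing of E2F binding.

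Ccne2 (cyclin E2, chromosome 4, 11191351 to 11204779, plus strand), the second E cyclin, rose with monocytes and had the largest limma standard error of the 10 genes. It was at 5.6, 14.2 and 7.86 CPM alone, 12.2, 16.1 and 19.7 with TRM, and 12.6, 26.4 and 29.4 with monocytes. Alone replicate 2 lay above TRM replicate 1 and monocyte replicate 1, so the groups overlapped in both comparisons. The rise with monocytes was 2.51-fold (log2 1.33, SE 0.37, limma adjusted p = 0.0166). It was lost without alone replicate 1 (0.0766) or 3 (0.0563), or without monocyte replicate 2 (0.0656) or 3 (0.0509). With TRM the difference was 1.84-fold (log2 0.88, SE 0.37, limma adjusted p = 0.119) and passed when alone replicate 2 was left out (0.0324).

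Cdk2 (chromosome 10, 128697939 to 128705031, minus strand), the kinase that the E cyclins activate, rose with monocytes. It was at 32.5, 31.5 and 37.1 CPM alone, 51.3, 43.4 and 42.6 with TRM, and 47.7, 49.4 and 54.0 with monocytes. Neither co-culture overlapped the alone group. The rise with monocytes was 1.498-fold (log2 0.58, SE 0.15, limma adjusted p = 0.0118) and held in all 17 alternatives. With TRM the difference was 1.36-fold (log2 0.44, SE 0.15, limma adjusted p = 0.0594), and it passed in DESeq2 (0.0394) and without monocyte replicate 1 (0.04999). The longest stretch of the Cdk2 window outside annotated exons, 128 bases (RefSeq, GRCm38.p6, chr10:128705052-128705179, minus strand), is shown for its 5 GC boxes (capitals).
Cdk2: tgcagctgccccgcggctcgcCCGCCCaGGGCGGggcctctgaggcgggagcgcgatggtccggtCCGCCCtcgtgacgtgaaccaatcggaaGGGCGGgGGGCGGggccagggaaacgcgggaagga
An E2F word, read on the minus strand of the window, has its first base 140 bases before the Cdk2 start, inside an exon annotated to the neighbouring gene Pmel. Among the 10 members, 6 had an entry in the RefSeq promoter table: Ccnd3, Ccne1, Cdk2, Cdk4, Cdk6 and E2f1. Cdk2 was the member whose window held an E2F word, and the E2f1 window lies wholly within exon sequence of E2f1.

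Rb1 (chromosome 14, 73183673 to 73325822, minus strand), the pocket protein gene that restrains E2F, showed overlapping groups in every comparison. It was at 25.3, 22.7 and 31.9 CPM alone, 20.7, 24.3 and 29.4 with TRM, and 17.0, 28.5 and 19.8 with monocytes. The difference was log2 -0.10 with TRM (95% interval -0.59 to 0.39, limma adjusted p = 0.804) and -0.31 with monocytes (95% interval -0.80 to 0.18, limma adjusted p = 0.341). A p that misses the threshold does not show equal levels, and these intervals still allow a ratio to the alone group of 0.57 with monocytes. The relatives of Rb1, named after their values were seen, were Rbl1 (p107) and Rbl2 (p130). Rbl1 was 1.60-fold higher with monocytes (limma adjusted p = 0.0455), a call lost without any 1 of the 3 alone libraries, any 1 of the 3 monocyte libraries or TRM replicate 2, and with library totals (adjusted p 0.0552 to 0.134). Rbl2 did not pass with TRM (log2 -0.28) or with monocytes (log2 -0.42), and without alone replicate 2 the latter passed as lower (0.0461).

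E2f1 (chromosome 2, 154559407 to 154569892, minus strand), the transcription factor that RB1 restrains, had the smallest adjusted p of the 10 genes in both comparisons with the tumour cells alone. It was at 27.2, 19.6 and 25.6 CPM alone, 51.3, 65.5 and 54.6 with TRM, and 85.1, 64.4 and 70.4 with monocytes. The lowest co-culture library, TRM replicate 1, was above the highest alone library. The rise was 2.38-fold with TRM (log2 1.25, SE 0.18, limma adjusted p = 0.000381) and 3.04-fold with monocytes (log2 1.61, SE 0.18, limma adjusted p = 4.46e-05). Both calls held in all 17 alternatives, where log2 fold changes ran from 1.11 to 1.34 with TRM and from 1.46 to 1.70 with monocytes. The TRM and monocyte groups overlapped, with a difference of log2 -0.36 (95% interval -0.74 to 0.02, limma adjusted p = 0.469). Per kilobase of all exons, the ratio of E2f1 to Rb1 levels was 1.53 to 2.05 alone, 3.55 to 5.13 with TRM and 4.31 to 9.55 with monocytes. The ratio in every co-culture library exceeded that in every alone library. The length of the longest coding transcript gave 1.36 to 1.82 alone and 3.14 to 8.46 in the co-cultures. A change of length multiplies every library by the same factor, so the order of libraries could not differ.

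**Figure D2:**
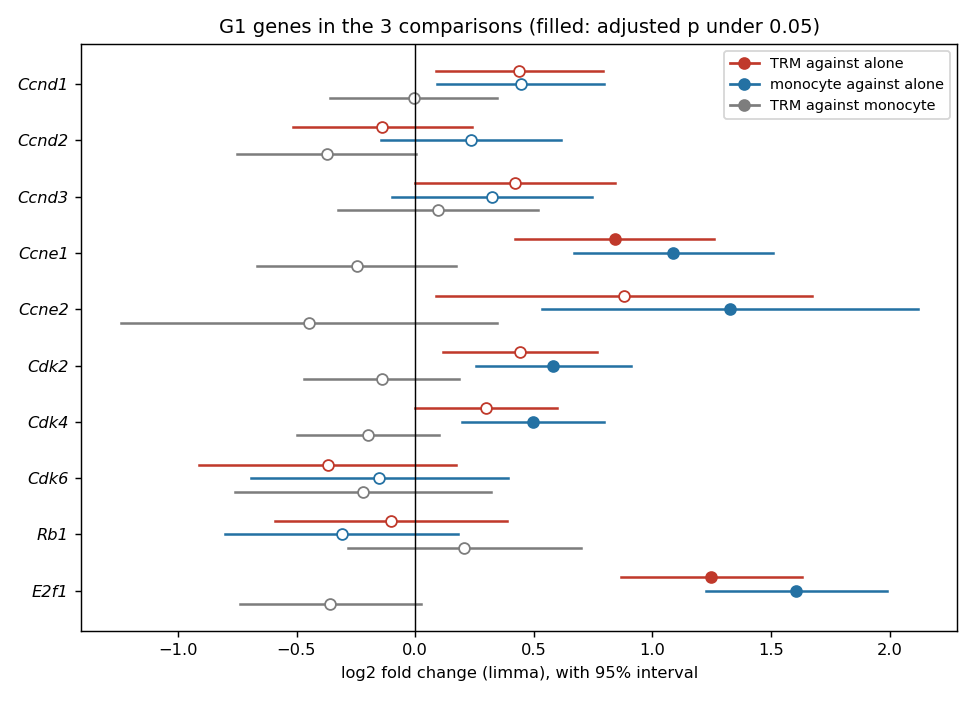
The horizontal axis gives the log2 fold change from limma with its 95% interval for the 10 genes (vertical axis) in the 3 comparisons; filled points have an adjusted p under 0.05. E2f1 stands farthest to the right in both comparisons with tumour cells alone (1.25 and 1.61), and no point of the comparison between the co-cultures is filled.

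Between-gene levels can be compared per kilobase. With the length of all exons, Cdk4 was the highest of the 10 genes in every group at 96.9 ± 13.4 alone, 118 ± 8.97 with TRM and 136 ± 12.5 with monocytes (CPM per kilobase, SD, n = 3), and Ccnd1 followed at 29.4 ± 2.24, 39.9 ± 3.10 and 40.7 ± 9.45. Alone, the order below them was Ccnd3, E2f1, Cdk2, Cdk6, Rb1, Ccne1, Ccnd2 and Ccne2. With monocytes E2f1 stood at 23.2 ± 3.38, above Ccnd3 at 13.97 ± 3.28, under this length. Cdk2 and Cdk6 (5.41 ± 0.483 and 5.08 ± 0.184 alone) had overlapping ranges, as did Ccnd3 and E2f1 (11.1 ± 2.34 and 7.66 ± 1.27), Cdk6 and Rb1 (4.42 ± 0.788), Rb1 and Ccne1 (4.03 ± 0.237), and Ccnd2 and Ccne2 (2.78 ± 0.149 and 2.63 ± 1.27). These orders and overlaps are for the length of all exons, and some change with that of the longest coding transcript. Under the latter, Ccnd3 exceeded E2f1 with monocytes (58.0 ± 13.6 against 26.6 ± 3.87). Alone, Cdk2 then exceeded E2f1 (13.99 ± 1.25 against 8.765 ± 1.45). Cdk2 and Cdk6 (6.16 ± 0.223) no longer overlapped alone, nor did Ccnd3 and E2f1. The order of Ccnd1 and Ccnd3 also depends on which transcript length is used. Ccnd1 made up 64.7% to 72.2% of D cyclin transcripts per kilobase of all exons, and 38.8% to 48.4% per kilobase of the longest coding transcript, where Ccnd3 held 46.1% to 56.3%. Under either length Ccnd2 was the lowest D cyclin, at 2.58% to 6.97% of the 3 in any library. Ccne1 supplied 49.96% to 71.1% of E cyclin transcripts per kilobase of all exons.

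Exons of several members overlap genes on the opposite strand, and the library kit is not stated to keep strand, so reads of such partners cannot be told apart from the member's own. LTO1 covers 23.4% of the exon length of Ccnd1, Tspan31 19.7% of Cdk4, Ints8 17.4% of Ccne2, Rcbtb2 8.11% and Lpar6 6.78% of Rb1, and Bysl 4.11% of Ccnd3. Among these partners Lpar6, which encodes a lysophosphatidic acid receptor, was the gene called, 2.26-fold lower with TRM and 2.43-fold lower with monocytes (limma adjusted p = 0.0011 and 0.000422). Bysl passed as higher with monocytes when alone replicate 2 was left out (0.013). Tspan31 was at 72.3 ± 3.96 CPM alone, 83.9 ± 3.95 with TRM and 88.3 ± 8.35 with monocytes (SD, n = 3; limma adjusted p = 0.293 and 0.129). Sequence shared with other genes was small, at most 1.99% of the 50-base words of a member (Ccnd3).

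The CDK inhibitors, which oppose these kinases, had 3 of 7 genes called higher and 0 lower with TRM, and 2 higher and 1 lower with monocytes. Their median log2 fold change was 0.29 with TRM and -0.01 with monocytes. Counts of this list and of those below stand beside 10.2% of all genes called higher and 8.15% lower with TRM. With monocytes these shares were 14.7% and 12.7%. Medians over all genes were -0.002 with TRM and -0.016 with monocytes. Cdkn2c (p18) was at 9.53, 9.40 and 9.63 CPM alone, 21.4, 17.1 and 18.2 with TRM, and 42.0, 29.2 and 19.2 with monocytes, 1.98-fold and 3.01-fold higher (limma adjusted p = 0.0166 and 0.000597). Its 6 co-culture libraries all exceeded the alone group, and the TRM call was lost without TRM replicate 1 (0.0587), where 1 of the 7 inhibitors was called. Cdkn2d (p19) was at 6.89, 7.36 and 7.17 CPM alone, 13.98, 14.8 and 18.1 with TRM and 31.5, 19.2 and 19.3 with monocytes, 2.18-fold and 3.18-fold higher (limma adjusted p = 0.00534 and 0.000267). These INK4 genes had the same direction as E2f1, in the same libraries.

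The other INK4 genes were not called higher. Cdkn2b (p15) was at 75.4, 82.8 and 60.0 CPM alone, 80.8, 51.4 and 52.3 with TRM and 37.6, 29.6 and 51.3 with monocytes, and fell 1.87-fold with monocytes (log2 -0.91, SE 0.23, limma adjusted p = 0.00967). Cdkn2a was at 6.18, 4.05 and 4.88 CPM alone, 10.1, 5.45 and 4.09 with TRM and 2.84, 1.99 and 6.00 with monocytes, and its groups overlapped (limma adjusted p = 0.711 and 0.337). Among CIP/KIP genes, Cdkn1a (p21) was at 64.3, 114 and 69.7 CPM alone, 148, 129 and 106 with TRM, and 77.0, 87.8 and 78.9 with monocytes. Its 1.58-fold difference with TRM (limma adjusted p = 0.0348) was lost in 6 alternatives: edgeR (0.0508), library totals (0.061), and the fits that left out alone replicate 1 (0.149), alone replicate 3 (0.141), TRM replicate 1 (0.117) or TRM replicate 2 (0.111). Cdkn1b (p27) and Cdkn1c (p57) did not pass in either comparison. Cdkn1c was at 10.9, 8.36 and 6.20 CPM alone, 4.47, 4.39 and 4.17 with TRM and 3.49, 2.45 and 7.47 with monocytes (log2 -0.93 and -1.05, SE 0.40, limma adjusted p = 0.128 and 0.0674), and passed as lower with TRM when only the groups compared were fitted (0.0374) and with monocytes when monocyte replicate 3 was left out (0.00646).

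**Figure D3:**
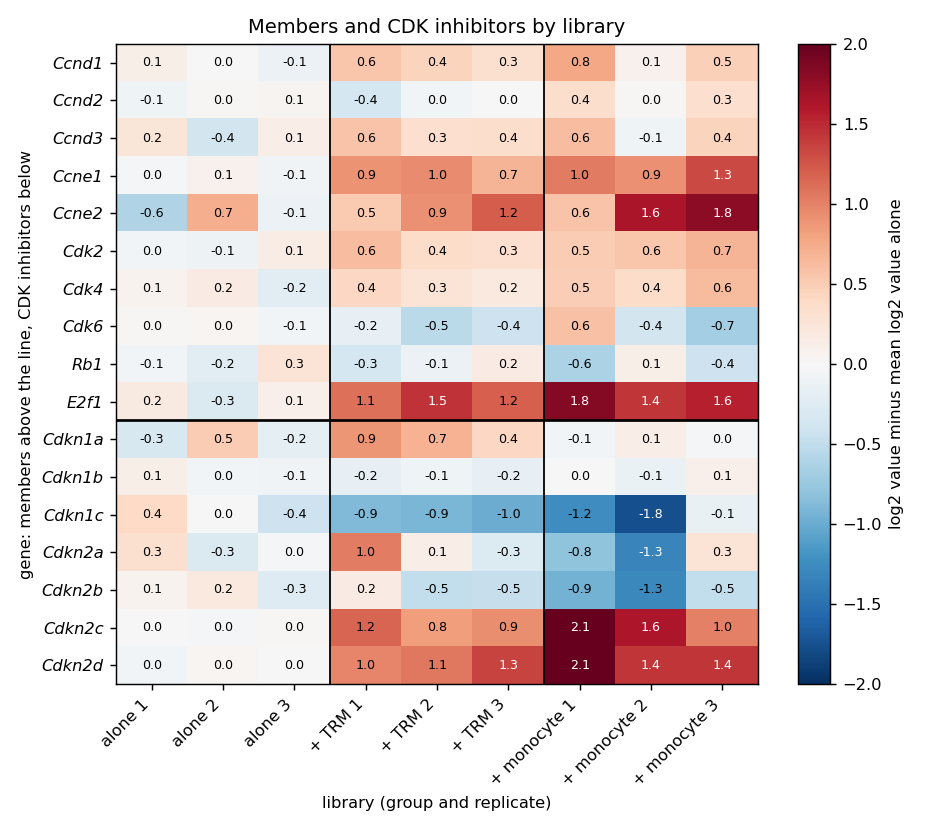
Each cell gives a library's log2 value minus the mean log2 value of the tumour cells alone, for the 10 genes (above the line) and 7 CDK inhibitors (below), with libraries in columns by group and replicate. E2f1, Ccne1, Cdkn2c and Cdkn2d are red in all 6 co-culture columns, and Cdk6 is red in monocyte replicate 1 and blue in replicates 2 and 3.

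On the list of other pocket proteins, E2F factors and their partners, and DREAM/MuvB genes, 5 of 18 were called higher and 1 lower with TRM. With monocytes 8 were called higher and 0 lower (median log2 0.30 in both comparisons). E2f2, another activating E2F, was at 4.53, 3.06 and 3.62 CPM alone, 10.8, 11.5 and 8.69 with TRM and 10.8, 10.4 and 12.5 with monocytes, 2.78-fold and 3.04-fold higher (limma adjusted p = 0.00192 and 0.000747). The repressor E2f8 rose 2.69-fold with TRM and 4.99-fold with monocytes (limma adjusted p = 0.0029 and 6.99e-05). E2f7, its relative, rose 4.23-fold with monocytes (limma adjusted p = 0.0105), and passed with TRM when alone replicate 2 was left out (0.00792). Foxm1 and Mybl2, which work with the MuvB core on later cell cycle genes, rose 2.58-fold and 2.46-fold with TRM and 5.06-fold and 5.23-fold with monocytes (limma adjusted p at most 0.00655). The E2F dimer partners, named after their values were seen, were called in opposite directions but in different comparisons. Tfdp1 was at 147, 144 and 142 CPM alone, 156, 161 and 165 with TRM (not called) and 172, 197 and 217 with monocytes. With monocytes it was 1.35-fold higher (limma adjusted p = 0.0206), a call lost without alone replicate 1 (0.0578) or 3 (0.0744) or monocyte replicate 2 (0.0578) or 3 (0.0667). Tfdp2 was at 64.2, 71.3 and 74.6 CPM alone, 47.8, 46.5 and 53.1 with TRM and 51.8, 61.5 and 62.2 with monocytes (not called). With TRM it was 1.43-fold lower (limma adjusted p = 0.0245), a call that ended when alone replicate 2 (0.0563), alone replicate 3 (0.108), TRM replicate 1 (0.0609) or TRM replicate 2 (0.103) was left out. The monocyte count of 8 was 5 without alone replicate 1 and 5 without alone replicate 3.

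Genes that E2F factors transcribe at the G1/S transition had 14 of 30 called higher and 1 lower with TRM (median log2 0.46), and 24 higher and 0 lower with monocytes (median log2 0.95). Mybl2, named above, is counted on this list as well. Uhrf1, which maintains DNA methylation, was at 14.4, 26.6 and 16.7 CPM alone, 52.9, 69.3 and 59.1 with TRM and 116, 87.0 and 84.8 with monocytes, 3.24-fold and 5.13-fold higher (limma adjusted p = 0.000204 and 1.86e-05). Its 3 groups did not overlap. Rrm2, a ribonucleotide reductase subunit, rose 2.79-fold and 5.86-fold (limma adjusted p = 0.00317 and 5.4e-05). Cyclin A2 (Ccna2) rose 2.54-fold and 5.56-fold (limma adjusted p = 0.00352 and 3.94e-05). The helicase subunit Mcm5 and Cdc45, which joins it in the active helicase, rose 2.15-fold and 2.12-fold with TRM, and 3.76-fold and 3.83-fold with monocytes (limma adjusted p at most 0.00277). The gene called lower with TRM was Pola1, the catalytic subunit of DNA polymerase alpha, named after its values were seen. It was at 20.3, 20.4 and 20.8 CPM alone, 13.7, 12.1 and 14.03 with TRM and 23.3, 24.7 and 16.5 with monocytes, and its TRM call (log2 -0.63, limma adjusted p = 0.0453) was lost without any 1 of the alone or TRM libraries (0.0794 to 0.163), or monocyte replicate 2 (0.0514). Without TRM replicate 2, 9 of the 30 were called higher with TRM and 0 lower.

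Between TRM and monocyte co-cultures these E2F target genes gave 0 calls by limma and by edgeR, and 21 by limma at an unadjusted p under 0.05, with 1 of 30 fold changes above 0 and a median log2 of -0.54, where 49.98% of all genes lay above 0. DESeq2 on the recovered reads called 12 of the 30 lower with TRM than with monocytes. The fit without alone replicate 2 and the fit of only those groups each called 2, library totals called 1, and the other alternatives 0 or 1. For 23 of the 30 the 2 groups did not overlap, as for 16.2% of all genes. Mcm5 was at 96.6, 112 and 71.6 CPM with TRM and 174, 157 and 152 with monocytes (log2 -0.81, SE 0.17, limma adjusted p = 0.0613).

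Kinase subunits and phosphatases that switch CDKs on or off had 5 of 11 genes called higher and 1 lower with TRM, and 6 higher and 1 lower with monocytes (median log2 0.48 and 0.67). The phosphatase Cdc25c, which activates CDKs, rose 2.52-fold and 6.02-fold (limma adjusted p = 0.00561 and 4.42e-05). Cks1b, a CDK-binding subunit also needed by the SKP2 ligase, rose 1.65-fold and 2.505-fold (limma adjusted p = 0.0078 and 9.88e-05). Cdc37, the chaperone partner that loads CDK4 onto HSP90, was at 240, 232 and 251 CPM alone, 399.5, 385 and 357 with TRM and 415, 378 and 356 with monocytes, 1.58-fold and 1.59-fold higher (limma adjusted p = 0.00211 and 0.00132). Wee1, the kinase that inhibits CDKs, was the gene called lower in both comparisons. It was at 108, 118.5 and 146 CPM alone, 57.0, 62.7 and 65.4 with TRM and 54.4, 71.1 and 43.0 with monocytes, 2.00-fold and 2.24-fold lower (limma adjusted p = 0.00219 and 0.000537).

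Genes of cyclin and inhibitor turnover had 5 of 18 called higher and 0 lower with TRM, and 7 higher and 0 lower with monocytes (median log2 0.22 in both). This list mixes genes that promote turnover, such as Skp2, with inhibitors such as Fbxo5, so these counts and medians give no direction of turnover. Skp2, which marks p27 for destruction, was at 19.8, 14.3 and 15.9 CPM alone, 20.2, 17.5 and 23.3 with TRM and 27.8, 30.9 and 33.4 with monocytes, and rose 1.85-fold with monocytes (limma adjusted p = 0.00445). Fbxo5, an inhibitor of the anaphase-promoting complex, rose 2.33-fold with TRM and 4.20-fold with monocytes (limma adjusted p = 0.0157 and 0.000398), and its TRM call did not hold when alone replicate 1 (0.0662), alone replicate 3 (0.0784) or TRM replicate 2 (0.0518) was left out. The TRM count of 5 rested on few libraries. It was 2 without alone replicate 1, 3 without alone replicate 2, 1 without alone replicate 3, 3 without TRM replicate 1, 0 without TRM replicate 2 and 2 with library totals. In that fit without TRM replicate 2 limma called 1219 of all genes.

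The list of growth factor and MYC inputs to the D cyclins had 1 of 18 called higher and 4 lower with TRM, and 2 higher and 7 lower with monocytes (median log2 -0.32 in both). It mixes inhibitors such as Spry1 with activators such as Jun, so these counts and medians give no direction of the input. Spry1, a feedback inhibitor of receptor tyrosine kinases, was at 539, 427 and 511 CPM alone, 121, 73.4 and 74.2 with TRM and 102, 96.0 and 158 with monocytes, 5.63-fold and 4.24-fold lower (limma adjusted p = 1.15e-05 and 3.47e-05). Jun, an AP-1 subunit, was at 3565, 2746 and 3561 CPM alone, 2145, 1878 and 2110 with TRM and 1387, 1343 and 1720 with monocytes, 1.60-fold and 2.21-fold lower (limma adjusted p = 0.0109 and 0.000262). The Jun call with TRM did not hold in fits that left out alone replicate 1 (0.0576), alone replicate 3 (0.0558) or TRM replicate 2 (0.0559). Etv4, a target of the ERK pathway, rose 1.63-fold with TRM (limma adjusted p = 0.0132, and 0.082 without TRM replicate 2). The monocyte count of 9 was 5 without alone replicate 1 or monocyte replicate 1, 4 without monocyte replicate 2 and 3 without alone replicate 3, and the TRM count of 5 was 3 without alone replicate 3 or TRM replicate 2.

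**Figure D4:**
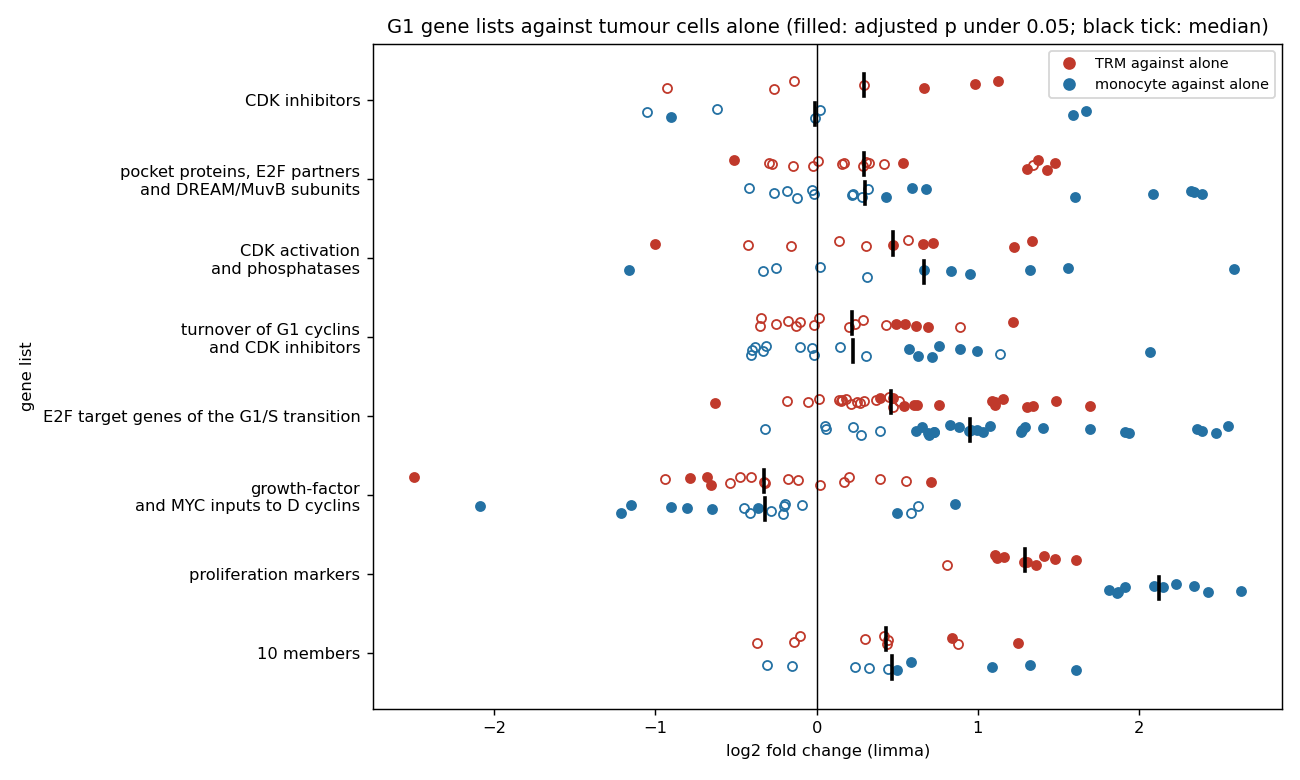
The horizontal axis gives limma log2 fold changes against tumour cells alone for each gene of 7 lists and the 10 G1 genes (vertical axis), red for TRM and blue for monocytes; filled points have an adjusted p under 0.05 and black ticks are medians. The medians of the proliferation markers (1.29 and 2.12) lie farthest to the right, and those of the growth factor and MYC inputs (-0.32 in both) farthest to the left. The latter list mixes activators and inhibitors.

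Proliferation markers moved with these genes in the same libraries. With TRM 9 of 10 were called higher, with Mki67 as the exception (45.5, 41.2 and 39.6 CPM against 20.9, 31.4 and 21.0 alone, limma adjusted p = 0.0692), and with monocytes all 10 were called higher. Mki67 also passed with TRM in DESeq2 (0.0439), with only the groups compared (0.00968), and without alone replicate 2 (0.0447), monocyte replicate 1 (0.0162) or monocyte replicate 3 (0.018). Cdk1, the mitotic kinase, was at 28.0, 30.2 and 23.5 CPM alone, 61.5, 68.5 and 67.9 with TRM and 97.8, 95.9 and 114 with monocytes (2.43-fold and 3.77-fold, limma adjusted p = 9.43e-05 and 7.15e-06). The D cyclins, Cdk6 and Rb1 were not called by limma in either comparison.

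As a description of pattern, the tested genes with the highest Pearson correlation of log2 values with each of 3 members over the 9 libraries were listed. The libraries share groups, so these values carry no p. For E2f1 they were Crtap (0.992), Flot2, Efemp2 and Gtf3c5 (0.984). For Ccne1 they included Capzb (0.986), the DNA polymerase epsilon subunit Pole2 (0.983) and Ddost. For Ccnd1 they were Abhd17a (0.975), Fhl3, Tmem39b and Pcid2 (0.970). Crtap, a collagen prolyl hydroxylation cofactor, was at 30.5, 25.3 and 29.1 CPM alone, 49.5, 62.3 and 61.0 with TRM and 85.9, 62.0 and 66.3 with monocytes. Within the monocyte group its highest library was replicate 1 and its lowest replicate 2, as for E2f1. Crtap was chosen by its correlation with E2f1 over these same libraries, so this shared order is no separate likeness.

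In the authors' deposited tables, 3 of the 10 genes had a false discovery rate under 0.05 with TRM, namely Ccnd1, Ccne1 (0.0374) and E2f1 (2.86e-08), where 23.7% of the genes in that table did. With monocytes 5 did, namely Ccne1, Ccne2 (0.0058), Cdk2 (0.0193), Cdk4 (0.0234) and E2f1 (6.24e-11), where 28.2% of the genes in that table did. The authors' deposited table differed from the limma calls in Ccnd1 with TRM, and in no other of the 10.

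Total recovered reads ran from 16001895 to 32771448 per library. Monocyte replicate 3 stood apart with 385 genes at 0 reads, against 8 to 195 in the others. The sum of 8 epithelial markers was 15160 to 16980 CPM alone, 15230 to 19090 with TRM, 10430 and 11590 in monocyte replicates 1 and 2 and 16400 in replicate 3. This epithelial sum can hide changes of its members, which did not all go the same way. Cldn4 was at 970 to 1385 CPM alone, 547 to 1032 with TRM and 471 to 744 with monocytes. Krt7 was at 1590 to 1870 CPM alone, 2096 to 2925 with TRM and 961 to 2077 with monocytes. The part of the epithelial differences in the results was not tested. Of 8 lung epithelial markers 2 were among the genes of the table (Sftpd and Ager), and Nkx2-1 and Sftpc were not. Sftpd was at 22.6 to 47.0 CPM alone, 2.99 to 8.98 with TRM and 2.53 to 9.95 with monocytes. Ager was at most 1.76 CPM in any library. Of 23 macrophage and monocyte markers 13 were in the table, with a summed level of 159.6 to 248 CPM alone, 181 to 317 with TRM and 187 to 248 with monocytes, and Adgre1, Marco, Ly6c2 and C1qa were not. Cd14 was the largest part of this sum in every library, so the sum can hide changes of the other markers. It was at 104.5 to 213.5 CPM alone, 84.3 to 202 with TRM and 95.7 to 166 with monocytes. Ptprc, the leukocyte marker CD45, was at 0.916 to 3.46 CPM alone, 0.501 to 4.47 with TRM and 0.021 to 0.565 with monocytes. It was called lower with monocytes by limma, a call lost in edgeR (0.0779) and with log2(value + 1) (0.0785), among other fits. Mrc1 rose 6.23-fold with TRM and 7.57-fold with monocytes to at most 47.9 CPM, and F13a1 13.9-fold and 13.4-fold to at most 17.3 CPM (limma adjusted p at most 4.14e-05). Other markers of the list went the other way. Siglecf was at 1.05 to 1.79 CPM alone and at most 0.594 in any co-culture library. Chil3 was at 3.06 to 14.6 CPM alone, 0.796 to 7.92 with TRM and 0.314 to 1.20 with monocytes. Whether cells of those kinds contributed to the values of the 10 genes was not tested.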

How the data were processed

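Each library started from 1 ng of RNA of 20000 to 170000 sorted cells, amplified with the SMART-Seq v4 kit, per the labels' protocols. STAR 2.5, edgeR and mm10 are named in the submitters' processing notes. Which read counter and annotation were used is not given in the sources used here. Deposited signal values are CPM: each value is whole reads plus 0.5 read over a scaled library size, from the values of the table, and 100% of 111051 values came out as whole reads (tolerance 1e-04). The authors' deposited comparison tables hold log2 fold changes, a likelihood ratio score, p-values and false discovery rates, per the file headers.

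Log2 values were fitted with limma 3.58.1 in R 4.3.3 (trended prior, group means, 6 residual degrees of freedom, two-sided), after filterByExpr (count 10, total 15) had removed 13 genes and left 12326. No pseudocount was added beyond the 0.5 read in the values, so fold changes of low genes are understated. Alternatives, 17 per result, included edgeR 4.0.16 and DESeq2 1.42.0 on the recovered reads. Replicates differed by far more than sampling noise of reads (chi-square per gene at least 21.1), and each library counts once. This spread does not show whether they came from separate cultures, since amplification could also give it. The procedure was tested on simulated data. Positions are from GENCODE M21 (GRCm38), where 12255 table names matched 1 gene, 62 none and 22 several.

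The members and gene lists were chosen with earlier results of these data known. Named genes were the 10 members, every CDK inhibitor, up to 6 genes per list by smallest adjusted p, the 4 most alike genes for each of 3 members (1 is not reported here) and up to 4 macrophage markers. Tfdp1, Tfdp2, Pola1, Mki67, Rbl1, Rbl2 and Myc were added after their values were seen.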

Additional observations from a re-analysis of the deposited data

Results flagged for a closer look

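Aurka, a mitotic kinase on the list of proliferation markers, was the gene of the lists that limma called between the co-cultures. It was at 12.0, 15.5 and 15.7 CPM alone, 32.7, 35.3 and 28.2 with TRM, and 66.9, 52.8 and 64.1 with monocytes, so its 3 groups did not overlap. Its rise over the tumour cells alone was 2.23-fold with TRM and 4.26-fold with monocytes, and the difference between these effects was log2 -0.93 (SE 0.18, limma adjusted p = 0.0441). The call was lost with the replicate block (0.0545) and in 8 of the 9 fits that left out 1 library (0.0548 to 0.171). DESeq2 called 9 of the 10 proliferation markers lower with TRM than with monocytes.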

How the results depend on the processing

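E2f1 in both comparisons with tumour cells alone, and Ccne1 and Cdk2 with monocytes, kept their calls in all 17 alternatives. Calls of the other members that were gained or lost are given in the report and, for the replicate block, below. Leaving out 1 library gave 1219 to 2593 genes called with TRM (2262 with all), 2239 to 3529 with monocytes (3366) and 0 to 134 between the co-cultures (49). Of the 10 members it gave 1 to 4 with TRM and 3 to 6 with monocytes. Between the co-cultures DESeq2 called 329 genes, log2(value + 1) 75 and the fit with the replicate block 79. Library totals in place of scaled sizes shifted the median log2 fold change by -0.09 with TRM, -0.05 with monocytes and -0.04 between the co-cultures, and turned 1257 higher and 1005 lower calls with TRM into 1003 and 1302.

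The replicate block added Ccne2 with TRM (limma adjusted p = 0.0346) and Ccnd1 with monocytes (0.0366), giving 3 and 6 members called, 2392 and 3511 genes called, and took no member's call away. Among the other genes named it made Myc pass as lower with TRM (0.0457) and monocytes (0.0427), E2f7 (0.0452) and Mki67 (0.0429) as higher with TRM, Epcam as lower with monocytes (0.0305) and Ccna2 as lower with TRM than with monocytes (0.0451), and it ended the calls of Pola1 with TRM (0.0583) and Aurka between the co-cultures. Same-numbered libraries correlated between -0.02 and 0.43 in their deviations from group means, not all over 0.1, and alone replicate 2 correlated best with TRM replicate 3 (0.26), so the numbers were not taken to pair the samples.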
